A study of Homo sapiens with 10 samples.

Results

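Long-chain fatty acids enter liver cells and are used only after they have been joined to coenzyme A. The 8 genes described here encode proteins of these steps, namely the long-chain acyl-CoA synthetases ACSL1, ACSL3, ACSL4 and ACSL5, the fatty acid transport proteins SLC27A2, SLC27A4 and SLC27A5, and the fatty acid translocase CD36. They were picked out by gene name, with no cut on measured values, but with earlier results of these data known. Each name matched a single row of the 32738 genes in the count table. HepG2 cells, a human hepatoma line used as a model of hepatocytes, were given regular growth medium (control) or medium with 2 µg/ml tunicamycin for 17 h. Both conditions shared the same serum-containing, high-glucose medium, and the labels name no solvent control. Tunicamycin blocks N-linked glycosylation and so causes endoplasmic reticulum (ER) stress. RNA was measured in 5 libraries per condition by 3′ RNA sequencing, which gives about a single fragment per transcript. Counts can therefore be set side by side between genes without a correction for length.

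An acyl-CoA synthetase traps a fatty acid inside the cell as acyl-CoA, and the enzyme that does so is thought to steer the product toward triglycerides, phospholipids or oxidation. The ACSL enzymes sit on the ER, on mitochondria and on lipid droplets. The SLC27A proteins, also called FATPs, carry an acyl-CoA synthetase activity themselves, and CD36 is a glycoprotein of the cell surface that binds fatty acids and lipoproteins. In liver, ACSL1 is a classical target of the nuclear receptor PPARα.

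Libraries held 2234682 to 5029864 counts, the lowest total being that of tunicamycin replicate 5, and 18.3% to 28.8% of the counts were mitochondrial. All 6 ER stress genes listed as a check of the treatment passed the test as higher, with the largest log2 fold changes for DNAJB9 (3.76) and HSPA5 (2.97). Of 8 hepatocyte and hepatoma markers, all were well detected, 5 were lower with tunicamycin, and the median log2 fold change was -0.57. In such bulk libraries fewer cells that express a gene cannot be told apart from less RNA per cell.

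Promoter sequences are given for the members whose expression passed the test, and for the stretches that hold the AP-1 type of site which the study examined at another gene. The 250 bases before the first base of the main transcript are shown 5′ to 3′, from RefSeq (GRCh38.p14). Capitals mark the searched motifs. In ACSL1, on the minus strand at chr4:184825969-184826218, this is CCACG, part of the ER stress element, at position -220. In SLC27A5, on the minus strand at chr19:58511993-58512242, it is TGATGNAAN, the composite site of C/EBP and ATF factors, at position -195.
ACSL1: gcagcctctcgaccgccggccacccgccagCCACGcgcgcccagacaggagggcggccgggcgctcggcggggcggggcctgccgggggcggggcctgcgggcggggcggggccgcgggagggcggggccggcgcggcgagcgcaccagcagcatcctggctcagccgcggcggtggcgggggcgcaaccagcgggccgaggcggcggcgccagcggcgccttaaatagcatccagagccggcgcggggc
SLC27A5: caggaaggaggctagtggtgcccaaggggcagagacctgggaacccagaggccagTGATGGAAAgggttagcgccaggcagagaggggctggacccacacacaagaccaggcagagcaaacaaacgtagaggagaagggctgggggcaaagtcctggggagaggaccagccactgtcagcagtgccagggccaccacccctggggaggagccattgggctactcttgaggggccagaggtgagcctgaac

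The ACSL1 stretch had a GC content of 83.6% with 41 CpG dinucleotides, against 62.8% and 2 for SLC27A5. RefSeq lists 18 start sites for the 8 genes, among them 5 for ACSL1 and 6 for CD36, and reads from 3′ ends do not show which was used. The windows of 300 bases around these sites (250 before the first base, 50 from it on) were searched on both strands. TGANTCA, a looser form of the AP-1 sequence TGA(G/C)TCA used in the study, was found at 1 ACSL1 start and 1 CD36 start. It was in 7.71% of the 35116 promoters of the same length. That share counts any middle base, while both matches here read TGACTCA, whose own share was not counted. Both matches are shown with 11 bases on either side and the site in capitals, the first on the minus strand at chr4:184812281-184812309 and the second on the plus strand at chr7:80646114-80646142.
ACSL1, inner start site: agggtcattcaTGACTCAgtagatgtttg
CD36, inner start site: gattctttctgTGACTCAtcagttcattt

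The other motifs were as frequent as follows. TGATGNAAN was in 3.61% of all promoters and in 1 of the 18 windows, that of SLC27A5. CCACG was in 38.1% of all promoters and in 6 of the 18 windows (33.3%), of which 3 belong to ACSL1 and 1 each to ACSL4, SLC27A2 and SLC27A4. TCACNCCAC, a sterol element, was in 1.13% of promoters and at another inner start of ACSL1. TGACGTGG, which itself contains CCACG on the other strand and is bound by XBP1 and ATF6, was in 0.729% of promoters, and the PPAR element DR1 in 0.0228%. Neither was found in these windows of the 8 genes. A match is a description of the letters and was not tested as a binding site.

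In untreated cells the genes spanned a wide range of levels, given here as normalized counts, which are counts brought to a common scaled library size. ACSL3, an enzyme of the ER and of lipid droplets, was the most abundant at 1995 ± 142 (SD, n = 5), above 98.2% of the genes tested. ACSL4, which prefers polyunsaturated fatty acids such as arachidonic acid, followed at 506.2 ± 106, and ACSL5, found on mitochondria and the ER, at 464.6 ± 39.9. The ranges of these last genes overlapped, while that of ACSL3 (1811 to 2170) lay above both. SLC27A2 had 157.3 ± 29.7, CD36 114.1 ± 11, SLC27A4 82.5 ± 10.1 and SLC27A5 57.36 ± 15. ACSL1 was the lowest at 34.38 ± 8.2, below SLC27A5 by mean but with overlapping libraries, and above only 32.9% of tested genes. SLC27A2 and CD36 overlapped as well, as did SLC27A4 and SLC27A5. With tunicamycin ACSL1 moved from rank 8 to rank 6 and overlapped SLC27A4, and SLC27A5 became the lowest, with no library as high as any of SLC27A4.

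All 8 genes were abundant enough to be tested. ACSL1 was higher with tunicamycin, SLC27A5 was lower and 6 genes did not pass edgeR's quasi-likelihood test (threshold 0.05 for the adjusted p). Among the 12733 genes tested, 34.2% passed, 17.6% as higher and 16.6% as lower, so 2 of 8 genes is no larger a share than this background. Of all genes that passed, 51.4% were higher, and 40.8% with library size as the only scaling, under which ACSL1 was still called higher and SLC27A5 lower. The conditions did not overlap for 1 of the 8 genes, against 23.5% of all genes tested. The median log2 fold change of the 8 genes was -0.034, and that of all tested genes was -0.003.

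ACSL1 (ENSG00000151726, minus strand of chromosome 4 of GRCh38, 184755595 to 184826818), the synthetase best known in liver, heart and fat, was the member that rose. In replicates 1 to 5 it had 29.3, 26.8, 30.6, 38.5 and 46.8 normalized counts in untreated cells and 72.6, 82.4, 102, 79.7 and 113 with tunicamycin. Every tunicamycin library was above every control library, and the gene was higher in 5 of 5 replicate pairs. The mean rose from 34.38 ± 8.2 to 89.94 ± 16.9 (SD, n = 5 each), a 2.59-fold change with a 95% interval of 1.99 to 3.39. The log2 fold change was 1.38 (standard error 0.183, adjusted p = 1.08e-05 in edgeR's quasi-likelihood test), larger than that of 97.1% of tested genes. These values rest on 30 to 108 counts per library. In the annotation, exons of noncoding genes on the opposite strand overlap exons of ACSL1, but none overlaps its last exon, where reads from 3′ ends are expected to fall. Opposite-strand exons also overlap ACSL3, ACSL5, SLC27A2 and SLC27A5 (there of ZNF446 among others), and KCNE5 overlaps ACSL4 on the same strand. None of these overlaps the last exon of the main transcript either.

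The other 3 synthetases did not pass the test. ACSL3 (ENSG00000123983, plus strand of chromosome 2, 222860942 to 222944639) had, in replicates 1 to 5, 1811, 1898, 2032, 2067 and 2170 normalized counts without tunicamycin and 1712, 1891, 1891, 1866 and 1889 with tunicamycin. The tunicamycin values lay within or just below the control range, and each was at or below its partner of the same replicate. The log2 fold change was -0.11 (adjusted p = 0.315), and the 95% interval of the fold change ran from 0.825 to 1.04. With 936 to 2322 counts per library, this was the most precise estimate of the 8.

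ACSL4 (ENSG00000068366, minus strand of chromosome X, 109624244 to 109733403) had 482.9, 409.3, 497.8, 685.4 and 455.4 normalized counts in controls and 368.2, 448.5, 502.5, 482.2 and 456 with tunicamycin. Control replicate 4 stood above the rest, and without it the log2 fold change went from -0.17 to -0.02, with adjusted p-values of 0.318 and 0.886. The 95% interval of the fold change with all libraries was 0.744 to 1.07.

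ACSL5 (ENSG00000197142, plus strand of chromosome 10, 112374116 to 112428379) had 401.1, 451.2, 483.8, 485.6 and 501.1 normalized counts in controls and 389.4, 460.4, 529.9, 715.7 and 524.6 with tunicamycin. Tunicamycin replicate 4 was the highest library, and it also had the largest mitochondrial share, 28.8%, and the smallest scaling factor. Without this library the log2 fold change went from 0.17 to 0.04, with adjusted p-values of 0.326 and 0.829. The interval with all libraries was 0.935 to 1.35 fold.

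Of the transport proteins, SLC27A5 (ENSG00000083807, minus strand of chromosome 19, 58479512 to 58512413) fell. It encodes FATP5, a protein largely restricted to liver that also activates bile acids. In replicates 1 to 5 it had 79.2, 65.1, 53.4, 47.5 and 41.7 normalized counts in controls and 46.5, 31.8, 28.3, 31.6 and 36.3 with tunicamycin. Only tunicamycin replicate 1 reached into the control range, above control replicate 5, and the gene was lower in 5 of 5 pairs. The mean went from 57.36 ± 15 to 34.89 ± 7.06 (SD, n = 5 each), or 0.61 fold with a 95% interval of 0.454 to 0.822. The log2 fold change was -0.71 (standard error 0.205, adjusted p = 0.0109 in edgeR's quasi-likelihood test). The counts were low, 18 to 92 per library. After thinning of each library to the total of the smallest, the call was lost (log2 fold change -0.64, adjusted p = 0.0723).

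SLC27A2 (ENSG00000140284, plus strand of chromosome 15, 50182196 to 50236385) encodes FATP2, which takes up fatty acids at the cell surface and activates very long chains in peroxisomes. It had 107.6, 162.3, 172.4, 185.5 and 158.6 normalized counts in controls and 116.6, 139.9, 137, 134.6 and 119 with tunicamycin. Control replicate 1 was the lowest of all 10 libraries, and 4 of 5 pairs were lower with tunicamycin. The log2 fold change was -0.28 (standard error 0.136, adjusted p = 0.126), with an interval of 0.677 to 1.01 fold, and it did not pass the test. Without control replicate 1 it was -0.39 and passed (adjusted p = 0.011). It also passed with library size as the only scaling (-0.36, adjusted p = 0.04999).

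SLC27A4 (ENSG00000167114, plus strand of chromosome 9, 128340527 to 128361470), or FATP4, an ER enzyme of intestine and skin among other tissues, had 93.8, 76.7, 69.1, 82.4 and 90.5 normalized counts in controls. With tunicamycin it had 89.5, 90.3, 78.4, 82.4 and 82.7, all inside the control range. Its log2 fold change was 0.04 (adjusted p = 0.836), with an interval of 0.85 to 1.25 fold, and turned to -0.04 with library size as the only scaling.

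CD36 (ENSG00000135218, plus strand of chromosome 7, 80369575 to 80679277) had 105.9, 130.2, 112.9, 119.2 and 102.7 normalized counts in controls and 130.9, 133, 122.8, 169 and 113 with tunicamycin. It was higher in 5 of 5 pairs, but the conditions overlapped, and the difference did not pass the test (log2 fold change 0.23, adjusted p = 0.173). The interval was 0.976 to 1.41 fold. Tunicamycin replicate 4 was again the highest library, and without it the log2 fold change was 0.14 (adjusted p = 0.412).

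CD36 is also a gene of macrophages, endothelium and fat cells, so their markers were counted in the same libraries. PTPRC and CSF1R of 5 myeloid markers were at 0 counts in all libraries, while LYZ, which made up nearly all of that list, had 1346 ± 201 normalized counts in controls and 1694 ± 324 with tunicamycin (adjusted p = 0.0524). CD68, the other myeloid marker tested, fell from 27.82 ± 7.35 to 15.6 ± 6.61 (adjusted p = 0.0319), and the list summed to 268 to 376 CPM in controls and 284 to 468 CPM with tunicamycin. The part of LYZ and CD68 in the CD36 values was not tested. The sum of the 3 endothelial markers in the table was 0 to 0.233 CPM (counts scaled to the library total) in controls and 0 to 5.66 with tunicamycin, its upper end set by 18 counts of CDH5 in tunicamycin replicate 4. CDH5 had 0 counts in the other 9 libraries. This is also the library with the most CD36, without which the log2 fold change of CD36 was 0.14, and the part of CDH5 in the CD36 values was not tested. KDR was at 0 in all libraries. Of the adipocyte markers ADIPOQ and LEP were at 0, and the list summed to at most 0.462 CPM. CD36 itself stood at 26.1 CPM in controls and 30.6 with tunicamycin. Fibroblast markers summed to at most 1.08 CPM, with COL1A2 and DCN at 0.

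CD36 was also measured by RT-qPCR in the study, but with thapsigargin in place of tunicamycin and in cells transfected for gene editing. There the paper reports no effect of thapsigargin on CD36. The primers are shown 5′ to 3′ because they sit near the 5′ end of the main transcript, while the libraries read 3′ ends.
Forward primer: ggctgtgaccggaactgtg
Reverse primer: aggtctccaactggcattagaa
The pair matches 18 annotated transcripts of the gene. Both primers lie in exon 3 of the main transcript, at chr7:80646744-80646762 on the plus strand and chr7:80646814-80646835 on the minus strand of GRCh38. The product of 92 bp ends 4215 bases before the 3′ end of this transcript of 4598 bases. In the other 17 matching transcripts it ends 102 to 1593 bases before the 3′ end, so how far the reads lay from the product depends on the transcripts present, which the counts do not show.

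**Figure D1:**
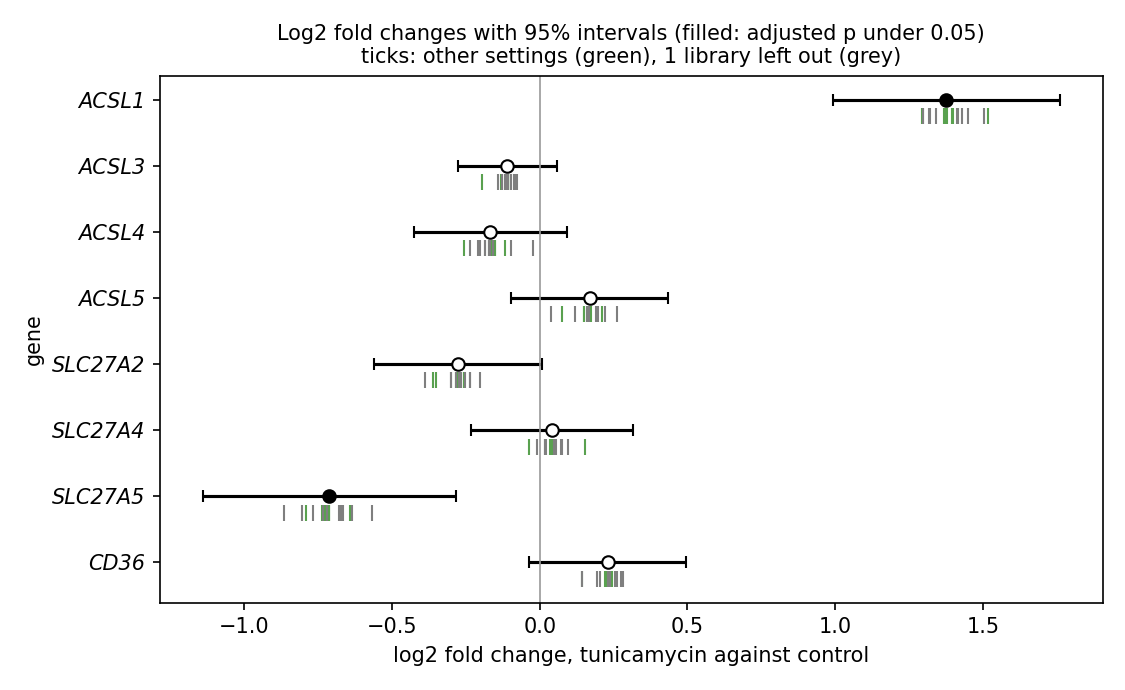
Log2 fold changes (tunicamycin against control, horizontal axis) of the 8 genes with 95% intervals from edgeR's fit, filled where the adjusted p was under 0.05. Small ticks give the same value under other settings (green) and with 1 library left out (grey): those of ACSL1 stay between 1.29 and 1.52 and those of SLC27A5 between -0.86 and -0.57.

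Seen as families, the synthetases had totals that overlapped between the conditions, while their makeup differed. The 5 ACSL genes together had 3024 ± 241 normalized counts in controls and 2922 ± 230 with tunicamycin. ACSL1 made up 0.954% to 1.46% of the family's counts in control libraries and 2.53% to 3.78% with tunicamycin, without overlap. ACSL6, mainly a gene of brain and blood cells, went the other way, from 0.668% to 0.908% in controls to 0.0312% to 0.337%. ACSL3 held 66% ± 2.09 and 63.5% ± 3.07, so that ACSL1 remained a small part of the pool in both conditions.

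The sum over the 6 SLC27A genes was lower with tunicamycin, going from 392.1 ± 19.8 normalized counts, with 358.9 in the lowest control library, to 306.1 ± 4.98, with 312.5 in the highest tunicamycin library. SLC27A2 held the largest share in both conditions (39.9% ± 6.17 and 42.3% ± 3.99). The share of SLC27A4 went from 21.2% ± 3.45 to 27.6% ± 1.34, and that of SLC27A3 from 21.1% ± 1.91 to 15.8% ± 2.33. For SLC27A6 no library held a count; 0 counts leave room for up to 3 per library, by counting error only. Shares and sums are descriptions of these libraries and were not tested.

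**Figure D2:**
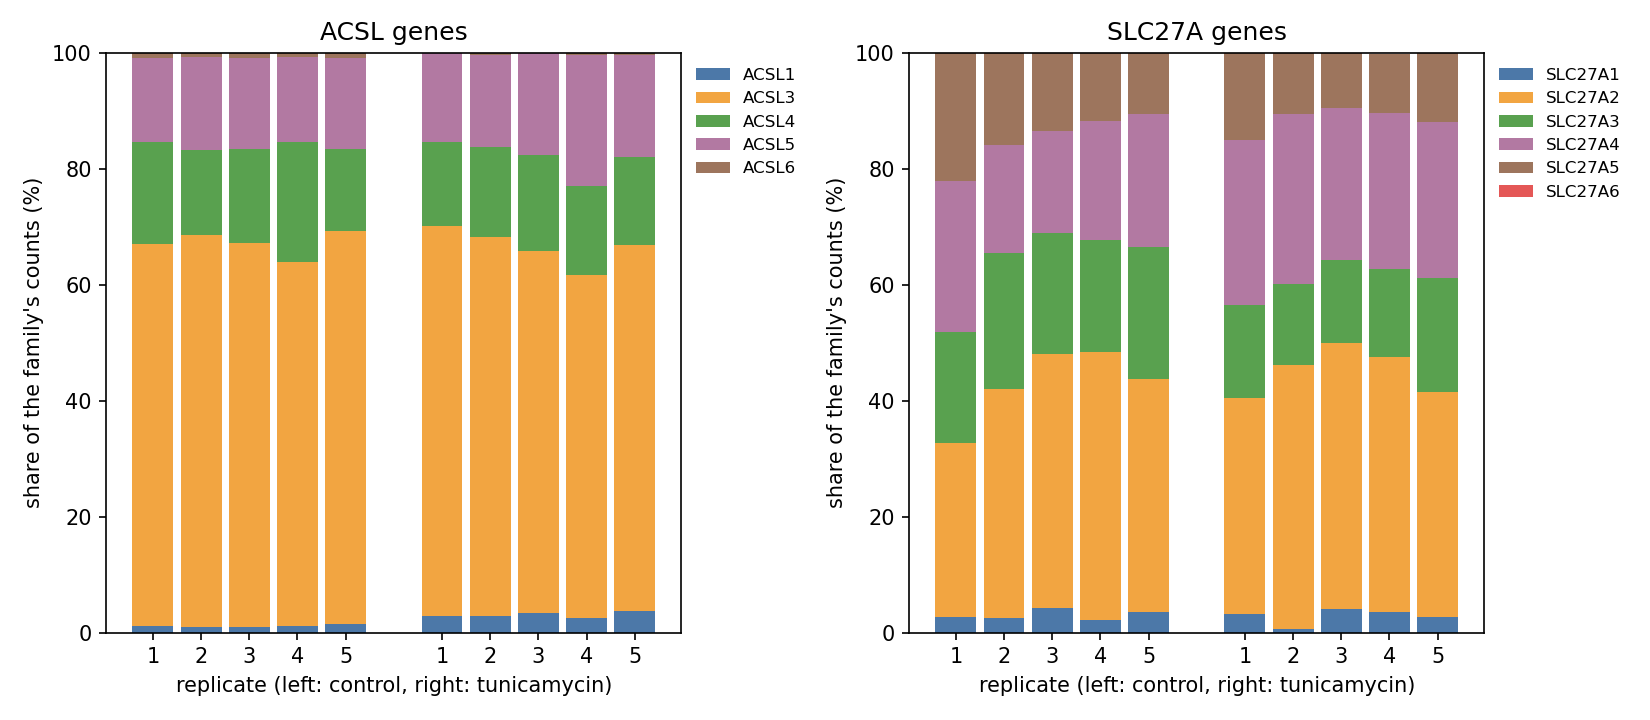
Share of each gene (vertical axis, % of the counts of its family in a library) for the ACSL genes (left) and the SLC27A genes (right), with 5 control and 5 tunicamycin libraries as stacked bars. ACSL3 fills 59.2% to 67.8% of every ACSL bar, ACSL1 widens at the bottom with tunicamycin, and the mean share of SLC27A4 goes from 21.2% to 27.6%.

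The members work among other proteins that activate, bind, hydrolyse or move acyl-CoA, and 57 such genes were listed with earlier results of these data known. Of the 56 found, 34 passed the filter, 1 of them (FABP2) only through its tunicamycin libraries. Another, ACSL6, needed its control libraries to pass. Of the 33 without FABP2, 1 rose and 14 fell, or 3.03% and 42.4%, against 17.6% and 16.6% of all genes tested. The shares over all genes were taken without such a removal. With FABP2 counted, 5.88% of the 34 were called higher and 41.2% lower. The median log2 fold change of the 33 was -0.43. ACSL6 was kept among these 33 and 14, so leaving out only FABP2 tilts the split toward decreases.

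Among other acyl-CoA synthetases, 6 of 12 tested genes were called lower, ACSL6 included, and 0 rose. ACSL6 had 29, 21, 29, 25 and 25 counts in control replicates 1 to 5 and 4, 9, 1, 7 and 5 with tunicamycin. Since it needed its control libraries to pass the filter, neither a fold change nor a test is given for it. The filter that treats all libraries as 1 group did not keep ACSL6. Besides ACSL6, the largest decrease was that of ACSM2A, a mitochondrial enzyme for medium chains. It went from 84.17 ± 15.5 to 23.04 ± 6.72 normalized counts (log2 fold change -1.86, adjusted p = 8.96e-07 in edgeR's quasi-likelihood test). ACSM2A has a near-identical neighbour, ACSM2B, which also fell (-1.73), and reads could be shared between them. ACSS2, ACSF2 and ACSS1 were the others that fell, and AACS, ACSF3, ACSS3, ACSM1, ACSM3 and ACSM5 did not pass. The call of ACSS1 was lost after thinning. ACSM5 (adjusted p = 0.0502) was near the threshold and was called lower under 4 of the 9 other settings, and ACSM3 (adjusted p = 0.0579) under 3.

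Of the transport and binding genes, 5 were tested besides FABP2, and 2 of these fell while 0 rose. FABP1, the abundant fatty acid binding protein of liver cytosol, fell from 1306 ± 231 to 502.1 ± 49.4 normalized counts (log2 fold change -1.38, adjusted p = 3.02e-08). SLC27A3 fell from 82.96 ± 10.5 to 48.45 ± 7.41 (-0.80, adjusted p = 0.000495). FABP2, the intestinal binding protein, had 0, 2, 0, 2 and 2 counts in control replicates 1 to 5 and 6, 11, 11, 8 and 11 with tunicamycin. Since only the tunicamycin libraries carried it past the filter, neither a fold change nor a test is given. GOT2, SLC27A1 and FABP5 did not pass, and 11 genes of this list, FABP4 among them, were too low to be tested.

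DBI, the acyl-CoA binding protein, was the most abundant gene of these lists and fell from 3155 ± 186 to 1514 ± 19.7 normalized counts (log2 fold change -1.06, adjusted p = 5.1e-09), while 4 ACBD genes did not pass. Among the thioesterases, which cleave acyl-CoA back to the fatty acid, 4 of 9 fell and 1 rose. PPT1 had a log2 fold change of -0.54 (adjusted p = 7.38e-05) and ACOT7 of -0.54 (adjusted p = 0.0101). ACOT9 rose from 88.71 ± 13.4 to 117.4 ± 15 (0.40, adjusted p = 0.0345), with overlapping libraries. This call was lost without control replicate 3 or 4 or without tunicamycin replicate 1, 3, 4 or 5, and also with the replicate block in DESeq2, with library size as the only scaling and after thinning. ABCD3, which brings acyl-CoA into peroxisomes, fell from 256.7 ± 51.6 to 189.7 ± 42.5 (-0.46, adjusted p = 0.0253), with 1 of 5 pairs going the other way. It did not pass without control replicate 3 or 4 or without tunicamycin replicate 1 or 3.

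**Figure D3:**
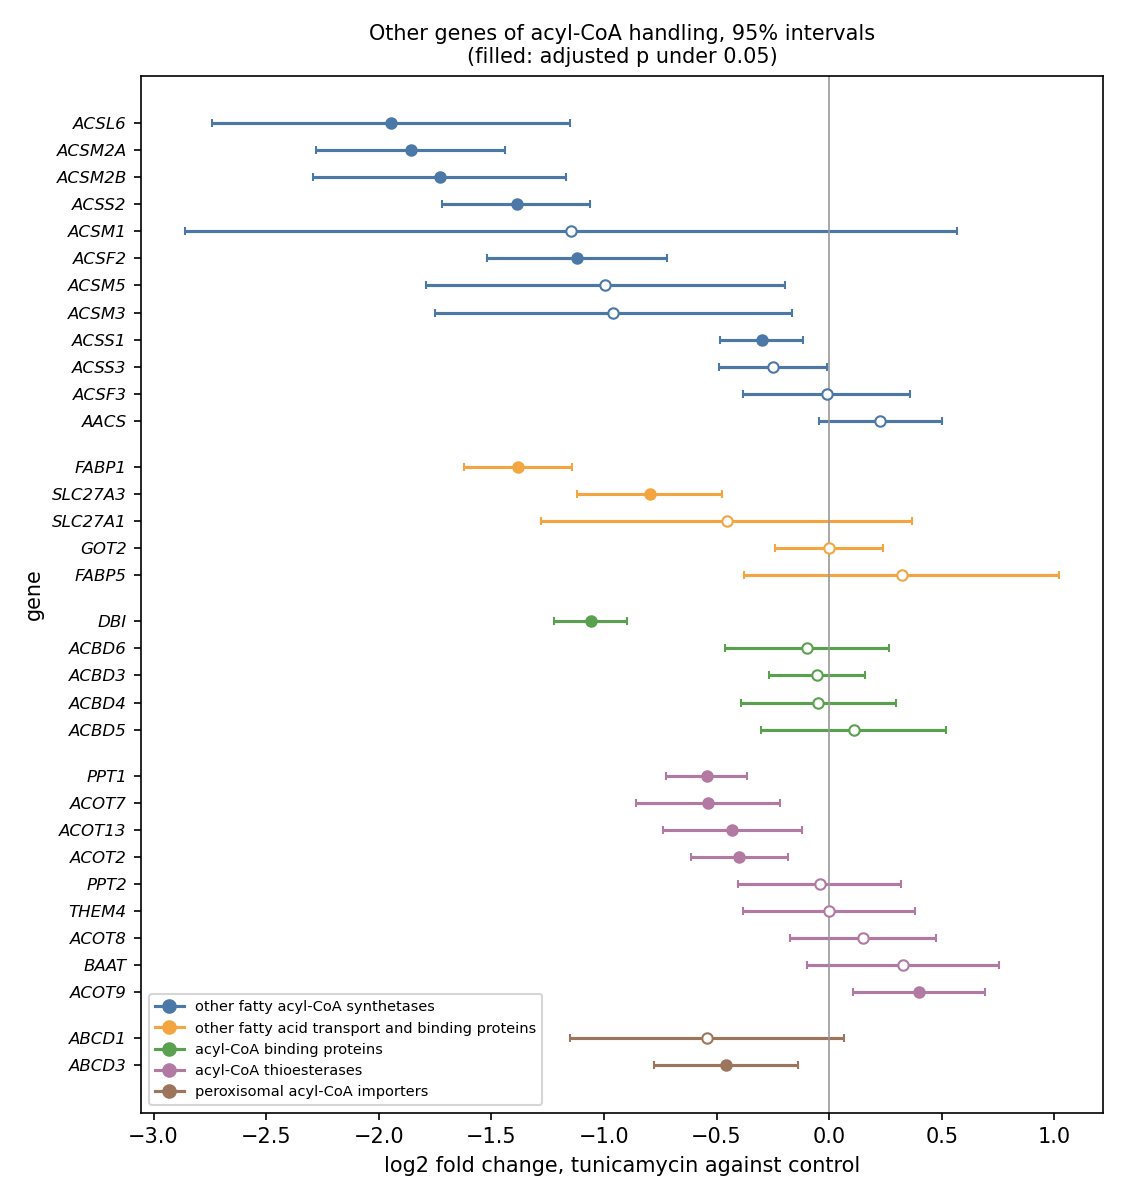
Log2 fold changes (horizontal axis) with 95% intervals of 33 tested genes of acyl-CoA handling, coloured by list and filled where the adjusted p in edgeR's test was under 0.05. Except ACOT9, every filled point lies below 0. FABP2, with at most 2 counts in each control library, is not drawn, while ACSL6, with 1 to 9 counts per tunicamycin library, is. This cut is on control counts only, so it can take out genes low in controls but not genes low with tunicamycin.

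The nuclear receptors known to act on fatty acid uptake genes did not move together. PPARG rose from 14.94 ± 4.47 to 41.04 ± 9.13 normalized counts (log2 fold change 1.42, adjusted p = 0.000235) and PPARD from 13.9 ± 5.29 to 30.3 ± 10.6 (1.07, adjusted p = 0.0121), the latter with overlapping libraries. RXRA, the partner of the PPARs, fell from 419.1 ± 42.6 to 241.9 ± 33.6 (-0.78, adjusted p = 1.49e-05). PPARA, NR1I2 and NR1H3 did not pass.

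The genes whose log2 levels followed ACSL1 most closely over the 10 libraries, among 9699 genes with at least 20 normalized counts, were GNPNAT1 (Pearson r = 0.984), ATP6V1H (0.983) and RCN1 (0.975). For SLC27A5 they were TNFAIP3 (0.984), ALYREF (0.968) and RBBP4 (0.968), the last of which did not pass the test itself (log2 fold change -0.22). These correlations include the difference between the conditions and share the same libraries and scaling, and are given as descriptions.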

How the data were processed

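HepG2 cells, untreated or treated with tunicamycin, were measured with 5 libraries each. The authors deposited raw counts per gene, made with an nf-core pipeline at default settings on hg19 with an Ensembl annotation. The aligner, the counting program and the strand setting are not given in the sources used here. All 10 sample columns were used.

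Genes were filtered with filterByExpr (minimum count 2, minimum total 10, as in the study's methods), scaled by TMM and tested with the quasi-likelihood F-test of edgeR (version 4.0.16, in R 4.3.3) with condition as the only term. Benjamini-Hochberg adjustment ran over the 12733 genes left by the filter. The standard error is the absolute log2 fold change divided by the square root of F. The scripts were tested on simulated data. Alternatives were DESeq2 1.42.0, other scalings and filters, the replicate block, thinning and leaving out each library.

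Replicates were experiments on separate days, per the series text, and libraries of the same number were taken as pairs. The sample titles give replicate numbers only and do not state this pairing. In replicates 1 to 5, paired deviations from the group means correlated at 0.318, 0.0173, 0.0423, 0.124 and 0.0934 over 10736 genes. The members and gene lists were chosen with earlier results of these data known. From each list were named the genes with the 2 largest changes in each direction among those that passed; ACSM2B, ACSS2, ACSF2, ACSS1, ACOT13, CD68, LYZ, CDH5, KDR and the genes listed as not passing were named after their values were seen, as were the sequences shown. For likeness, the 3 genes with the highest Pearson r were named for the member with the smallest p in each direction. Depth limits genes with few counts. Gene positions come from GENCODE on GRCh38, not the authors' build, through the Ensembl identifiers. Protein sequences were not used here.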

Additional observations from a re-analysis of the deposited data

Results flagged for a closer look

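In tunicamycin replicate 1, ACSL3 had 1712 normalized counts, far from the other 4 tunicamycin libraries (1866 to 1891). Of 20 groups of 5 values checked (the 8 genes, library totals and mitochondrial shares), this was the only such case, and chance gives about 1. The control library of the same replicate was also the lowest of its condition, at 1811.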

How the results depend on the processing

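ACSL1 stayed higher under all 9 other settings (log2 fold change 1.29 to 1.52) and in all 10 fits with 1 library left out (1.297 to 1.504). SLC27A5 stayed lower in the 10 fits (-0.86 to -0.57) and lost its call only when counts were thinned to the smallest library (-0.64, adjusted p = 0.0723), so that 0 of the 8 genes were then called lower. With library size as the only scaling, SLC27A2 was called too (-0.36, adjusted p = 0.04999), giving 2 genes called lower, and SLC27A4 turned to -0.038. With each library left out, SLC27A2 lay between -0.39 and -0.20, SLC27A4 between -0.01 (without control replicate 3) and 0.094, and 1 to 2 genes were called lower (2 without control replicate 1). The replicate block changed no call of the 8 genes, and ACSL1 was at 1.396 with it in edgeR. Of the other genes of acyl-CoA handling, FABP2 set aside, only ACOT9 was called higher under any setting. Its call was lost with library size only, after thinning, with the replicate block in DESeq2 and with some libraries left out. The cause of these losses was not tested. Among the same genes, ACSL6 included, 14 to 17 were called lower under other settings and 12 to 15 with each library left out, against 14. Both stricter filters removed FABP2. Of the lower calls, ABCD3 and ACOT13 were lost with some libraries left out, ACSS1 after thinning and ACSL6 with all libraries as 1 group in the filter. Levels of some 20 to 100 counts per library limit ACSL1, SLC27A4 and SLC27A5.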
